A study of Caenorhabditis elegans with 9 samples.

Results

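The *hrde-1(tm1200)* mutant was compared with wild-type in mRNA-seq libraries of whole *C. elegans* adults, and the changes are described across all genes with adequate counts. The comparison uses 6 of the 9 libraries of the study, chosen by their titles: 3 of *hrde-1(tm1200)* (strain USC661, a deletion allele on chromosome III) and 3 of wild-type (strain N2). Animals of both genotypes were grown at 20 °C, synchronized by arrest at the first larval stage and collected about 68 hours after that arrest as 1-day-old adults, and each library came from about 50000 animals. PolyA-selected RNA was made into stranded libraries, and the samples are described as biological triplicates. The mutant is represented by 1 allele in 1 strain, and a whole adult contains soma as well as germline. The remaining 3 libraries, of *hrde-2(qe20)*, entered only the filter on low counts, the library scaling and the estimate of the spread between replicates unless stated. The genes tested therefore include some, such as ZK262.9, that were nearly undetected in both compared genotypes and passed the filter through *hrde-2*.

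HRDE-1 is a nuclear Argonaute of the germline. It binds secondary small RNAs that are antisense to germline transcripts, enters the nucleus and, with the NRDE factors, acts on the nascent RNA of its targets, where elongation of transcription is inhibited and histone H3 is methylated at lysine 9. The pathway is known for keeping pseudogenes, transposon-derived sequences and other foreign-looking genes silent across generations, and for the progressive loss of fertility of mutants at high temperature. Fewer cells of a type and less RNA per cell cannot be told apart in RNA from whole animals.

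The libraries held 5801326 to 11884233 counts assigned to genes and detected 14452 to 16256 genes each. Wild-type replicate 1 stood apart from the other libraries. Its mitochondrially encoded genes took 2.24% of counts, against 0.924% to 1.03% in the other 5 libraries, and the summed level of 5 oocyte markers was 1146 CPM (counts per 1e+06 counts), against sums of 3295 to 3732 CPM in *hrde-1* and of 2849.9 and 2507 CPM in wild-type replicates 2 and 3. Its summed level of 4 intestine markers was the highest of the 6 libraries at 2920.5 CPM, against sums of 819.6 to 1245.5 CPM in *hrde-1* and of 1288.5 and 1938 CPM in wild-type replicates 2 and 3. Most of that sum, 2135.5 CPM, was act-5. elt-2 and vha-6 were also highest in this library, while ges-1 was not, at 43.9 CPM against 43.6 to 65.0 CPM in *hrde-1*. The part of these differences in any result was not tested, so each comparison is given with all libraries and again without wild-type replicate 1, which leaves 2 wild-type libraries. Counts from ribosomal RNA genes made up 19.4% to 28.5% of each library. A count of 3, used as the detection floor, corresponds to 0.257 to 0.537 CPM. CPM values here are scaled with the library factors of the test.

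The targeted gene was measured first. hrde-1 (chromosome III, 4172337 to 4176159, minus strand, WBcel235) was present at 108, 129 and 144 CPM in the *hrde-1* libraries, against 200.4, 355 and 301 CPM in the wild-type libraries. Every mutant library was below every wild-type library. The log2 fold change, always *hrde-1* over wild-type, was −1.17 ± 0.22 (SE, n = 3 each), with an adjusted p of 0.0169 by edgeR's quasi-likelihood test with Benjamini-Hochberg adjustment over all genes tested. Without wild-type replicate 1 it was −1.34 with an adjusted p of 0.000274. The call was lost when *hrde-1* replicate 1 or 2, or wild-type replicate 2 or 3, was left out instead, with adjusted p-values up to 0.0941. Counts per gene do not show which part of the transcript was missing.

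With all libraries more genes were higher than lower in *hrde-1*. Of 12141 genes tested, 150 were higher in *hrde-1* (1.24%) and 38 were lower (0.313%) with all libraries at an adjusted p under 0.05, the threshold used throughout. Without wild-type replicate 1 the calls were 763 higher (6.28%) and 905 lower (7.45%). Which direction held more calls in this second comparison turned with the setting: a replicate block gave 697 higher and 633 lower genes, no filter on low counts gave 1155 and 1012, and leaving out a further library gave 889 and 638, 438 and 328, or 724 and 777 for *hrde-1* replicate 1, 2 or 3, and 123 and 31 or 291 and 253 for wild-type replicate 2 or 3. Of the 188 genes called with all libraries (1.55%), 184 (97.9%; 1.52% of genes tested) were called in the same direction without that library, 147 of them higher (1.21%) and 37 lower (0.305%). No gene was called in opposite directions. The 2 comparisons share 5 of their 6 libraries, so this is a statement about the 1 library and not independent support. Leaving out any 1 of the other 5 libraries gave fewer calls, with 126, 96 and 115 higher and 21, 16 and 15 lower genes without *hrde-1* replicate 1, 2 or 3, and 88 and 87 higher and 17 and 21 lower genes without wild-type replicate 2 or 3. The median log2 fold change over all genes tested was −0.03 with all libraries and 0.09 without wild-type replicate 1.

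**Figure D1:**
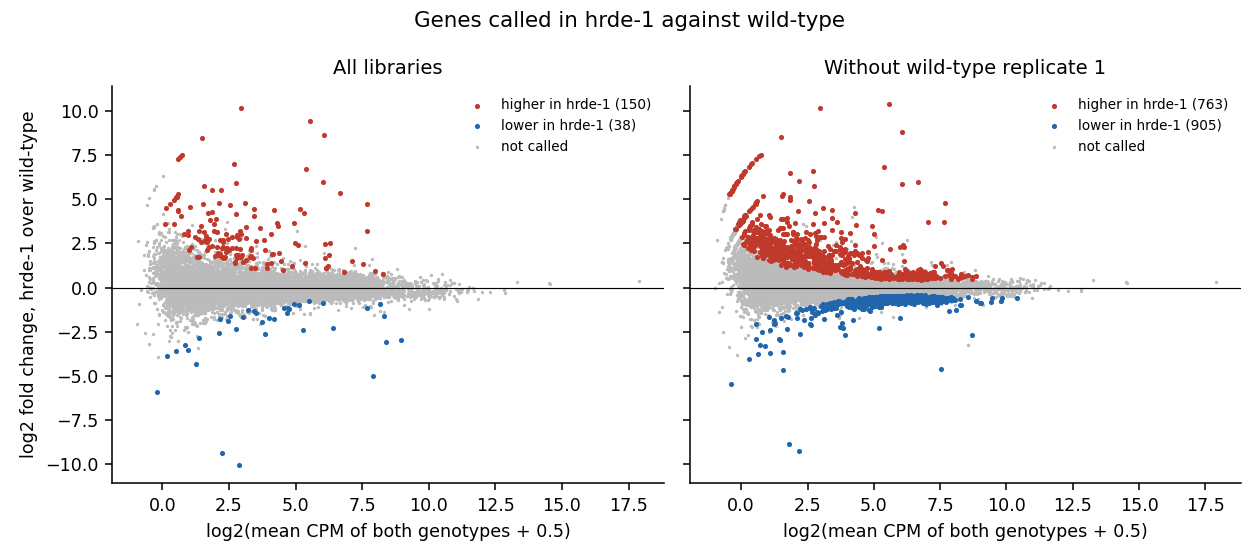
Each point is a gene tested, with its mean level on the horizontal axis (log2 of CPM + 0.5) and its log2 fold change, *hrde-1* over wild-type, on the vertical axis. Red and blue points are genes called higher and lower: 150 and 38 on the left with all libraries, 763 and 905 on the right without wild-type replicate 1.

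The 147 genes that were higher in both comparisons changed by large factors. At least 2-fold changes were fitted for 143 of them, at least 4-fold for 101 and at least 16-fold for 37, and their median log2 fold change was 2.69. In 23 of them no wild-type library held more than 3 counts. The 37 lower genes had a median of −1.80, of which 32 were 2-fold lower or more and 16 were 4-fold lower or more, and in 6 of them no *hrde-1* library held more than 3 counts. In all 184 genes the 3 *hrde-1* libraries did not overlap with the 3 wild-type libraries, a separation that 22.8% of all genes tested showed.

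The largest increases were in genes that were nearly or wholly undetected in wild-type. C38D9.2 (chromosome V, 17567513 to 17571603) was at 111, 136 and 147 CPM in *hrde-1*, against 0.393, 0.343 and 0.179 CPM in wild-type. Its log2 fold change of 8.62 ± 0.31 had an adjusted p of 9.97e-09 by edgeR, and the value without wild-type replicate 1 was 8.81. ZC15.3 (chromosome V, 20303588 to 20304908) was at 73.2, 91.3 and 114 CPM in *hrde-1*, against 0.262, 0 and 0.179 CPM in wild-type. With only 3 wild-type counts in all, ratios here are of counts pooled over each genotype and scaled by its pooled library size. For ZC15.3 the ratio was 760, with a 95% counting interval of 260 to 3690. Without wild-type replicate 1, which leaves 1 count, it was 1582 (284 to 62503). WBGene00018648, a pseudogene on chromosome IV (4130503 to 4134631), was at 9.05, 15.4 and 19.4 CPM in *hrde-1* and had no count in any wild-type library, so that it was at least 36.9-fold higher against the floor of 3 counts per library (36.8-fold without wild-type replicate 1). These 3 loci were thus off or close to off in every wild-type library, replicate 1 included.

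F15D4.5, on chromosome II (13245348 to 13247774), had a low but measurable wild-type level. It was at 108, 133 and 146 CPM in *hrde-1*, against 1.57, 2.23 and 2.33 CPM in wild-type, a log2 fold change of 5.97 ± 0.27 (adjusted p 7.27e-08 by edgeR). Y23H5A.8, on chromosome I (2632987 to 2634561), was at 61.8, 80.7 and 106 CPM in *hrde-1*, against 0.918, 0.943 and 0.358 CPM in wild-type, a log2 fold change of 6.69 ± 0.41 (adjusted p 1.18e-06). The groups were far apart in both genes. Of the other genes with the largest increases, F55B11.6 had 2 wild-type counts in all and a ratio of 146 (40.2 to 1213), and K09H11.11 had a ratio of 50.7 (17.1 to 248). These ratios without wild-type replicate 1 were 101 (27.9 to 841) and 105 (18.7 to 4185). C15B12.8, on the X chromosome (6474274 to 6476645), was the most abundant of the 10, at 256, 200.01 and 136 CPM in *hrde-1*, against 7.74, 2.23 and 4.66 CPM in wild-type, with a log2 fold change of 5.37 ± 0.46 and 5.99 without wild-type replicate 1. F16B4.6 and the pseudogene WBGene00014977, which lies next to ZC15.3, complete the 10.

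**Figure D2:**
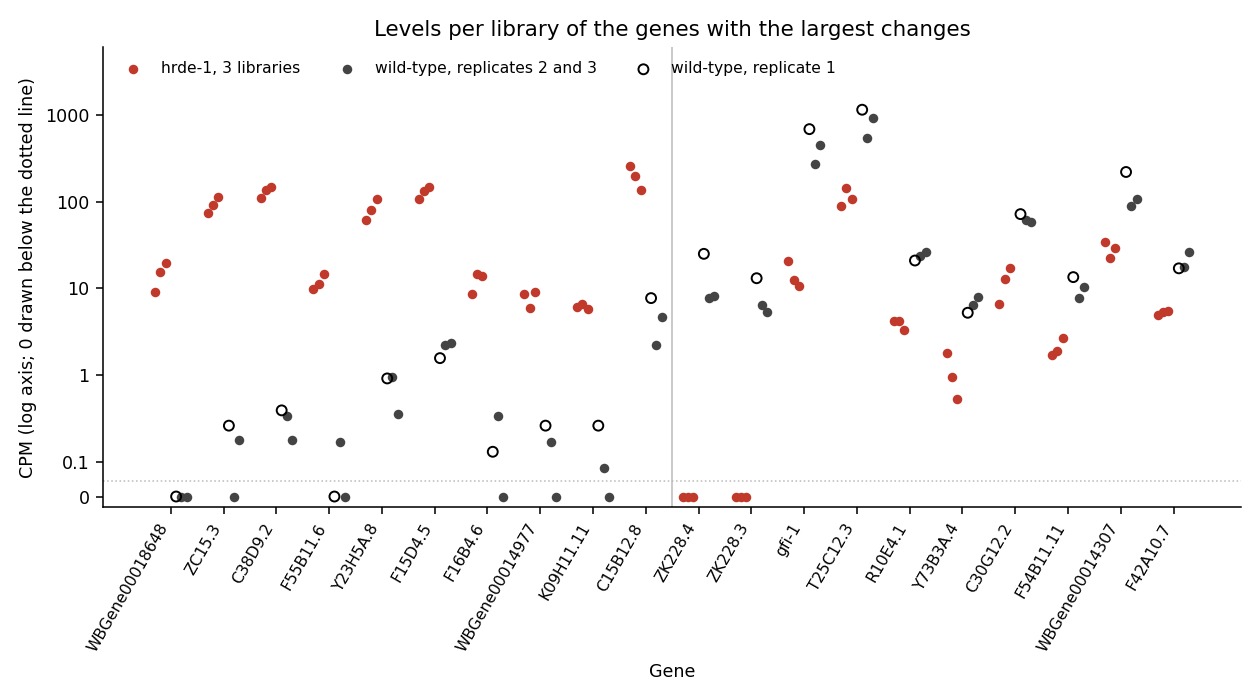
CPM in each library, on a log axis, for the 10 genes with the largest increases (left of the vertical line) and the 10 with the largest decreases (right), among genes called in both comparisons whose mean count in the higher genotype was 50 or more. Red points are the 3 *hrde-1* libraries, grey points wild-type replicates 2 and 3 and open circles wild-type replicate 1; ZK228.3 and ZK228.4 sit at 0 in *hrde-1*.

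The genes that fell in both comparisons were fewer. The largest decrease was in ZK228.4 (chromosome V, 18462804 to 18465320), which had no count in any *hrde-1* library, against 25.05, 7.72 and 8.24 CPM in wild-type, and was at least 43.2-fold lower against the floor of 3 counts per library, or at least 25.2-fold without wild-type replicate 1 (adjusted p 0.000248 by edgeR with all libraries). Its neighbour ZK228.3 (18458238 to 18461231) had no count in *hrde-1* either, against 13.1, 6.43 and 5.37 CPM in wild-type, and was at least 26.2-fold lower, or at least 18.6-fold without wild-type replicate 1 (adjusted p 0.000121). Both genes had 146 to 295 counts in each *hrde-2* library. Among genes tested, these were the only 2 with no count in any *hrde-1* library and more than 3 counts in every wild-type library. The genes annotated next to them had at most 2 counts in each *hrde-1* and wild-type library. Counts of 0 do not tell a silent gene from one whose sequence is absent from the strain.

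gfi-1 (chromosome V, 6392541 to 6399921), was the lower gene with the largest change at a high wild-type level. It was at 20.5, 12.7 and 10.7 CPM in *hrde-1*, against 685, 270.3 and 448 CPM in wild-type. The log2 fold change was −4.99 ± 0.45 (adjusted p 5.47e-05 by edgeR) and −4.59 without wild-type replicate 1. T25C12.3, on the X chromosome, was at 88.9, 145 and 106 CPM in *hrde-1*, against 1147, 546 and 910.1 CPM in wild-type, a log2 fold change of −2.94 ± 0.31 (adjusted p 0.000186). In both genes the genotypes were separated without overlap, although the wild-type libraries differed among themselves. R10E4.1 (chromosome III, 4269743 to 4272506) was at 4.16, 4.18 and 3.30 CPM in *hrde-1*, against 21.0, 23.8 and 26.3 CPM in wild-type, with an adjusted p of 8.31e-05. This gene lies close to hrde-1 on chromosome III. A pair of pseudogenes on chromosome II, WBGene00014307 and WBGene00014309, had log2 fold changes of −2.27 (adjusted p 0.00249) and −1.59 (adjusted p 0.00428).

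Called genes lay side by side in places. Taking the tested genes in their order along each chromosome, 33 higher genes formed 14 runs of neighbours and 8 lower genes formed 3 runs. The longest run of higher genes spanned 20302135 to 20324024 on chromosome V and held 5 genes: WBGene00014977, ZC15.3, ZC15.1, ZC15.10 and Y113G7C.1. Apart from ZC15.3 these had at most 96 counts in any library, and ZC15.1 had 22, 18 and 14 counts in *hrde-1*, against 0, 1 and 1 in wild-type. A run of 4 on chromosome I (10781278 to 10787863) held F55A3.8, gpx-8, WBGene00018851 and WBGene00018852. gpx-8, which encodes a glutathione peroxidase, was at 10.6, 12.5 and 12.9 CPM in *hrde-1*, against 0.656, 0.600 and 0.717 CPM in wild-type, a log2 fold change of 4.18 (adjusted p 3.33e-05 by edgeR). The calls of ZC15.1 (without *hrde-1* replicate 1 or 2 or wild-type replicate 2), ZC15.10 (without *hrde-1* replicate 2 or 3 or wild-type replicate 2) and WBGene00018851 (without *hrde-1* or wild-type replicate 3) were lost, with adjusted p-values up to 0.1. Most runs were pairs such as F15D4.5 with F15D4.6 and C38D9.2 with C38D9.13.

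The lower genes included a group at the left end of the X chromosome. Between 48483 and 157246, WBGene00022219, WBGene00022205, Y73B3A.4 and WBGene00022211 were consecutive lower genes, and T08D2.6 and T08D2.8 formed a further run between 179786 and 197901. Y73B3A.1, just to the left, was at 9.32, 7.89 and 6.40 CPM in *hrde-1*, against 24.3, 28.8 and 28.5 CPM in wild-type, a log2 fold change of −1.79 (adjusted p 0.00273 by edgeR). It was the member of the group that stayed called in every alternative at the same threshold. T08D2.6 (log2 fold change −4.29, adjusted p 0.0105) lost its call without *hrde-1* replicate 2 or wild-type replicate 2, with an adjusted p up to 0.0567. The other 5 were each lost in at least 4 of the fits that left out a library other than wild-type replicate 1, with adjusted p-values up to 0.141.

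Several changed genes have a known function, and those in the next 3 paragraphs were chosen after their values were seen, except where they belong to the most abundant called genes. timm-17B.2, which encodes a relative of a subunit of the mitochondrial inner membrane translocase, was the most abundant higher gene. It was at 331, 415 and 448 CPM in *hrde-1*, against 15.1, 14.4 and 15.6 CPM in wild-type, with a log2 fold change of 4.73 ± 0.22 (adjusted p 9.05e-08 by edgeR) and 4.77 without wild-type replicate 1. The wild-type libraries were close to each other here, replicate 1 included. ife-5, one of the germline isoforms of the cap-binding translation factor eIF4E, was at 45.9, 52.2 and 68.4 CPM in *hrde-1*, against 3.28, 5.83 and 3.94 CPM in wild-type (log2 fold change 3.64 ± 0.28, adjusted p 1.2e-05). prp-8, a core spliceosome protein, changed by a small factor at a high level: 420.0, 394 and 364 CPM in *hrde-1*, against 218, 226 and 237 CPM in wild-type (log2 fold change 0.79, adjusted p 0.0296). Its call was lost in the 5 fits that left out a library other than wild-type replicate 1, with an adjusted p up to 0.137.

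cysl-2, a cysteine synthase relative that detoxifies cyanide and sulfide and is known as a target of the hypoxia-inducible factor, was at 294, 439 and 379.8 CPM in *hrde-1*, against 62.4, 24.3 and 33.5 CPM in wild-type. The log2 fold change was 3.21 ± 0.34 (adjusted p 0.000186 by edgeR) and 3.72 without wild-type replicate 1. rhy-1, which encodes a regulator of that factor, was at 29.4, 34.5 and 32.4 CPM in *hrde-1*, against 16.3, 8.49 and 8.78 CPM in wild-type (log2 fold change 1.52, adjusted p 0.00971), and lost its call without wild-type replicate 3 (adjusted p 0.0555). nit-1, a nitrilase, was at 43.2, 36.3 and 28.4 CPM in *hrde-1*, against 4.85, 2.32 and 1.43 CPM in wild-type, a log2 fold change of 3.63 ± 0.37 (adjusted p 0.000142) and 4.22 without wild-type replicate 1. Wild-type replicate 1 was the highest wild-type library for all 3 genes and still below every *hrde-1* library. cysl-2, rhy-1 and nit-1 each overlap a gene on the other strand (vnut-1, W07A12.8 and ZK1058.9), and without strand in the counting the reads of the pair cannot be told apart.

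gst-4 and gst-5 encode glutathione S-transferases, which conjugate glutathione to electrophiles. gst-4, a commonly used reporter of oxidative stress, was at 38.003, 55.1 and 76.0 CPM in *hrde-1*, against 17.0, 6.17 and 8.42 CPM in wild-type (log2 fold change 2.42 ± 0.37, adjusted p 0.00387 by edgeR, and 3.01 without wild-type replicate 1). gst-5 was at 68.2, 64.5 and 44.2 CPM in *hrde-1*, against 26.2, 20.5 and 19.7 CPM in wild-type (log2 fold change 1.41, adjusted p 0.00399), and it was called in every alternative at the same threshold. The family as a whole was not tested. pdfr-1, the receptor of the pigment-dispersing factor neuropeptides, was at 27.1, 26.6 and 34.6 CPM in *hrde-1*, against 3.67, 3.17 and 3.94 CPM in wild-type (log2 fold change 3.04, adjusted p 0.000298), and it overlaps M01G4.6 on the other strand. rnh-1.3, an RNase H, had a log2 fold change of 2.50 (adjusted p 9.34e-05). saeg-2, known as a suppressor of the effects of the cGMP-dependent protein kinase EGL-4, had one of 1.90 (adjusted p 0.000589). saeg-2 overlaps T23G5.10 and T23G5.9 on the other strand.

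A list of HRDE-1 targets was taken from the small RNA libraries of the study, made from HRDE-1 pulled down in *mut-2* mutants. Of its genes, 733 were tested here, and 59 were higher (8.05%) and 1 lower (0.136%) with all libraries, beside 1.24% higher and 0.313% lower over all genes tested. The 1 lower gene was hrde-1 itself. All 59 were also higher without wild-type replicate 1, and they made up 40.1% of the 147 genes higher in both comparisons, where the list made up 6.04% of the genes tested. The median log2 fold change of the whole list was −0.06, close to that of all genes, so the called members were a small part of it. F15D4.5, timm-17B.2, Y23H5A.8 and nit-1 were among them.

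A further list came from regions with less H3K9me3 signal in *hrde-1* in chromatin libraries of the study. The antibody used there also recognizes other histone marks. Genes overlapping these regions numbered 1385, of which 472 were tested. Of the 472 genes, 36 were higher (7.63%) and 8 lower (1.69%), in both comparisons, beside 1.21% and 0.305% over all genes tested, and the median log2 fold change was 0.07. F15D4.5, timm-17B.2 and F28F8.7 were higher members. F28F8.7 was at 58.2, 63.9 and 79.8 CPM in *hrde-1*, against 2.75, 3.17 and 3.40 CPM in wild-type, with a log2 fold change of 4.43 (adjusted p 1.96e-07 by edgeR). It overlaps WBGene00007165 on the other strand. Regions with more signal in *hrde-1* were far more numerous, and of 4124 tested genes overlapping them 28 were higher (0.679%) and 13 lower (0.315%) with all libraries, beside 1.24% and 0.313% over all genes tested, with a median of −0.03. The counts without wild-type replicate 1 were 245 higher (5.94%) and 451 lower (10.9%), beside 6.28% and 7.45%. Of the 80 tested genes in both the small RNA list and the list with less signal, 22 (27.5%) were higher in both comparisons. Of the 147 higher genes, 73 were in at least one of these 2 lists and 74 were in neither. The study reports that the small RNAs preferred by HRDE-1 are depleted in *mut-2* mutants. Its longer list of HRDE-1 targets in wild-type was not used here. Genes in neither list can therefore still be targets in wild-type.

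Few genes of the small RNA machinery were called, which does not show that the others were unchanged. Of all 12141 genes tested, 2215 had an unadjusted p under 0.05 by edgeR with all libraries, in either direction. Without wild-type replicate 1 there were 3722. DESeq2 with all libraries called 411 higher and 156 lower. The unadjusted and DESeq2 counts of lists, here and in the paragraphs that follow, are to be read beside these. Of 10 nuclear RNAi factors tested, hrde-1 was lower and no other was called in either comparison, with a list median of −0.09 with all libraries and −0.33 without wild-type replicate 1, where 5 were lower at an unadjusted p under 0.05. No factor of H3K9 methylation and heterochromatin (11 tested) and no component of secondary small RNA synthesis (16 tested) was called with all libraries, by edgeR or by DESeq2, although 1 gene of each list was higher at an unadjusted p under 0.05, with list medians of 0.20 and −0.09. Without wild-type replicate 1 the medians were −0.04 and −0.32, and 2 and 7 genes were lower at an unadjusted p under 0.05. Of these lists, 1 and 3 genes were called lower in that comparison (9.09% and 18.75%, beside 7.45% over all genes tested). Of 17 Argonautes other than HRDE-1, 1 was called higher with all libraries (5.88%, beside 1.24% over all genes tested). Without wild-type replicate 1, 4 were called, all higher (23.5%, beside 6.28%). The 1 called with all libraries was alg-3, which acts in spermatogenesis and carries small RNAs against sperm transcripts. It was at 5.61, 6.69 and 5.86 CPM in *hrde-1*, against 2.23, 0.686 and 0.717 CPM in wild-type, a log2 fold change of 2.32 ± 0.42 (adjusted p 0.0127 by edgeR) and 3.13 without wild-type replicate 1 (adjusted p 0.000204). Its call was lost without wild-type replicate 2 or 3, with an adjusted p up to 0.0613. Its partner alg-4 was at 4.52, 6.09 and 6.72 CPM in *hrde-1*, against 3.80, 0.943 and 0.896 CPM in wild-type, and was called only without wild-type replicate 1 (adjusted p 0.116 with all libraries and 0.000713 without).

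Of 12 components of germ granules, the perinuclear bodies in which small RNA factors gather, none was called with all libraries by edgeR (4 higher at an unadjusted p under 0.05; 2 by DESeq2) and 3 were higher without wild-type replicate 1 (beside 6.28% over all genes tested). These were simr-1, znfx-1 and glh-4, a protein of the SIMR foci, the helicase of the Z granules and a helicase of the P granules. Their log2 fold changes without that library were 0.62 (adjusted p 0.0131 by edgeR), 0.73 (adjusted p 0.0258) and 0.51 (adjusted p 0.0377). With all libraries the values were 0.72, 0.65 and 0.54, so the size of the difference barely moved while the adjusted p-values were 0.0789, 0.151 and 0.15.

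Most tested transcripts of sperm were higher in *hrde-1* than in wild-type replicates 2 and 3, and wild-type replicate 1 lay within the range of the mutant for the largest sperm families. The major sperm proteins form the cytoskeleton of the crawling sperm and are released as a signal to oocytes. Of 31 listed genes 27 were tested, and the summed level of the list was 306, 458 and 454 CPM in *hrde-1*, against 366, 103 and 86.5 CPM in wild-type. None of the 27 was called with all libraries by edgeR (median log2 fold change 1.15; 18 higher at an unadjusted p under 0.05; DESeq2 called 11 higher), and all 27 were higher without wild-type replicate 1 (median 2.11), a comparison in which 6.28% of all genes tested were higher. msp-3, for example, was at 8.78, 15.7 and 15.2 CPM in *hrde-1*, against 7.999, 2.23 and 1.25 CPM in wild-type, with an adjusted p of 0.0953 with all libraries and 0.000184 without replicate 1 by edgeR. The genes of this family are near-identical in sequence, so reads can be split among them and the 27 are not separate measurements.

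Among 22 genes of other small sperm-specific families, 4 were higher with all libraries (nspd-10, ssp-19, ssq-3 and nspd-4; 18.2%, beside 1.24% over all genes tested) and 18 without wild-type replicate 1 (81.8%, beside 6.28%). Their summed level was 211, 337.5 and 327 CPM in *hrde-1*, against 247, 93.8 and 86.7 CPM in wild-type. nspd-10 was at 8.23, 13.1 and 12.5 CPM in *hrde-1*, against 2.75, 1.29 and 0.358 CPM in wild-type, a log2 fold change of 2.89 (adjusted p 0.00391) and 3.60 without wild-type replicate 1. The calls of the other 3 were lost in at least 4 fits that left out a library other than wild-type replicate 1, with adjusted p-values up to 0.169. Of 17 tested genes named for defects in sperm formation or function, 2 were higher with all libraries (11.8%) and 7 without replicate 1 (41.2%), beside 1.24% and 6.28% over all genes tested. At an unadjusted p under 0.05, 7 were higher and 1 lower with all libraries, and 10 and 2 without replicate 1. The summed level of the 30 listed genes was 131, 150 and 140 CPM in *hrde-1*, against 96.6, 128 and 122 CPM in wild-type, with replicate 1 the lowest library. This sum did not stand for every member. In spe-41, spe-15, spe-18 and fer-1, the members with the smallest adjusted p-values with all libraries, replicate 1 was the highest wild-type library. One of the 2 genes called with all libraries was spe-41, a calcium channel of sperm needed at fertilization, at 8.78, 8.60 and 6.18 CPM in *hrde-1*, against 2.10, 1.63 and 1.43 CPM in wild-type (log2 fold change 2.18, adjusted p 0.00267 by edgeR, 2.37 without replicate 1). In spe-41, unlike the major sperm proteins, wild-type replicate 1 lay near the other wild-type libraries. The other, spe-15, a myosin, had a log2 fold change of 1.11 and lost its call without any 1 of *hrde-1* replicates 2 and 3 and wild-type replicates 2 and 3 (adjusted p up to 0.125).

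fog-3, which directs germ cells to become sperm, was the 1 gene called with all libraries of 12 that set germline sex. It was higher (8.33%, beside 1.24% over all genes tested). Without wild-type replicate 1, fog-3 was higher (8.33%, beside 6.28%) and 1 other gene was lower (8.33%, beside 7.45%). fog-3 was at 1.18, 0.597 and 1.49 CPM in *hrde-1*, against 0.131, 0.0857 and 0 CPM in wild-type. With 2 wild-type counts in all, the ratio was 13.8 with a 95% counting interval of 3.52 to 119 (adjusted p 0.0488 by edgeR). The call was lost in the 5 fits that left out a library other than wild-type replicate 1, with an adjusted p up to 0.145. Markers of males were at or near 0, and none of 5 passed the filter on low counts. Their sum was at most 0.836 CPM in any library, and pkd-2 and lov-1 had no count. Any part of males in the sperm transcripts was not tested.

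Oocyte transcripts were lowest in wild-type replicate 1. Of 13 genes for oocyte RNA-binding proteins and the yolk receptor none was called in either comparison by edgeR or with all libraries by DESeq2, with 3 higher at an unadjusted p under 0.05 with all libraries and 1 without replicate 1, and the median log2 fold change was 0.50 with all libraries and 0.25 without replicate 1. Their sum was 4299.5, 4597 and 4915 CPM in *hrde-1*, against 1739, 4250.2 and 3821 CPM in wild-type. Of 14 genes of the eggshell and egg activation none was called with all libraries by edgeR or DESeq2 (median 0.39). At an unadjusted p under 0.05, 4 were higher. Without replicate 1, 1 was higher (7.14%, beside 6.28% over all genes tested) and 2 were lower (14.3%, beside 7.45%), with a median of 0.18. The sum was 7794, 7861 and 8393 CPM in *hrde-1*, against 3196, 7669 and 6897 CPM in wild-type. Wild-type replicate 1 thus had less than any other library of both oocyte groups and more than the other wild-type libraries of the major sperm proteins. Of 17 genes of the meiotic chromosome axis and synapsis none was called with all libraries by edgeR or DESeq2 (median −0.33; 1 higher and 4 lower at an unadjusted p under 0.05) and 7 were lower without replicate 1 (41.2%, beside 7.45% over all genes tested; median −0.50). The 6 vitellogenins, the yolk proteins made in the intestine, were not called in either comparison, by DESeq2 or at an unadjusted p under 0.05 (0 genes).

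**Figure D3:**
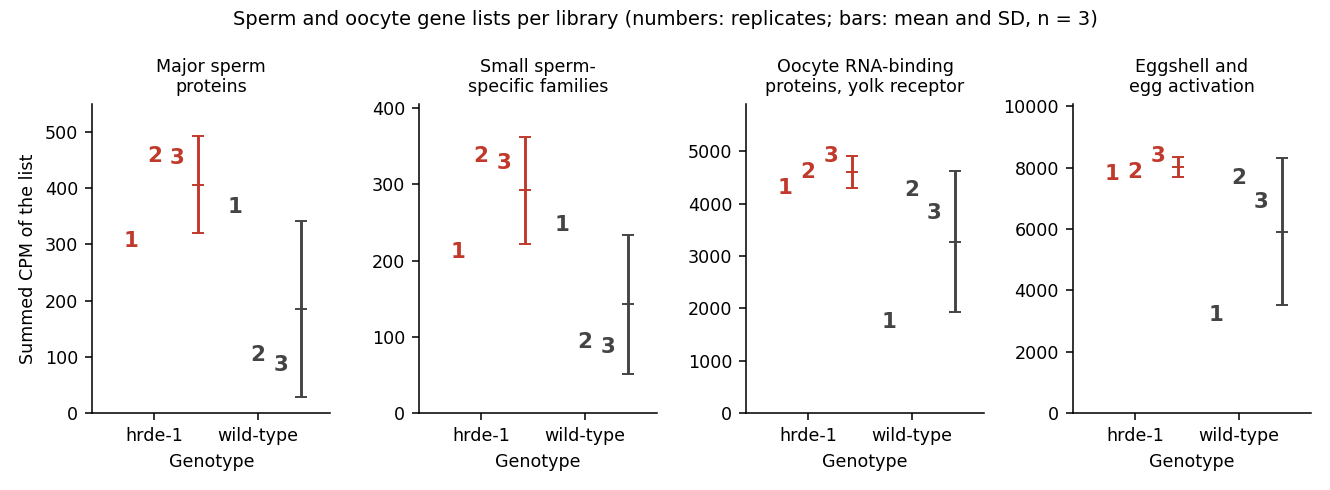
Summed CPM of 4 gene lists in each library, with the replicate number as the symbol, *hrde-1* in red and wild-type in grey, and bars for mean and SD (n = 3). In both sperm lists wild-type replicate 1 sits with the *hrde-1* libraries (366 CPM for the major sperm proteins, against 103 and 86.5 CPM in replicates 2 and 3), and in both oocyte lists it is the lowest library.

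Somatic and housekeeping lists held few called genes. The medians of several lists changed sign without wild-type replicate 1, as did that of all genes tested (−0.03 with all libraries and 0.09 without). The cuticle collagens moved most: the median log2 fold change of 89 genes was −0.72 with all libraries and 0.31 without wild-type replicate 1. Heat shock proteins (−0.11 and 0.11), C-type lectins (−0.18 and 0.12), F-box A proteins (−0.11 and 0.07), proteins with MATH and BTB domains (−0.03 and 0.12) and the factors of H3K9 methylation (0.20 and −0.04) turned as well. The sum over all listed collagens was 17405, 22567 and 27418.5 CPM in *hrde-1*, against 25034, 16829.6 and 18893 CPM in wild-type, and the groups overlapped. One collagen, col-95, was higher with all libraries, at 294, 216 and 289 CPM in *hrde-1*, against 81.3, 110.4 and 126 CPM in wild-type (log2 fold change 1.33, adjusted p 0.0298 by edgeR and 0.0286 without replicate 1). Its call was lost without *hrde-1* replicate 1 or 3 or wild-type replicate 2 or 3, with an adjusted p up to 0.0963. The 78 cytosolic ribosomal proteins had a median of −0.27, and 1 of them was above 0, while without wild-type replicate 1 the median was −0.10, 16 were above 0 and 2 were called lower. With all libraries none was called by edgeR, 16 were lower and 1 higher at an unadjusted p under 0.05, and DESeq2 called 2 lower. No histone (23 tested) and no heat shock protein (15 tested) was called with all libraries by edgeR or DESeq2, with 4 histones higher and 1 heat shock protein lower at an unadjusted p under 0.05.

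In several large families single members were called. The shares over all genes tested were 1.24% higher and 0.313% lower with all libraries, and 6.28% and 7.45% without wild-type replicate 1. Of 49 genes for proteins with MATH and BTB domains, 3 were higher with all libraries (6.12%), and 4 were higher and 4 lower without replicate 1 (8.16% each). bath-45 was at 10.4, 13.7 and 13.8 CPM in *hrde-1*, against 1.31, 1.54 and 1.25 CPM in wild-type (log2 fold change 3.18, adjusted p 0.000186 by edgeR), and bath-13 and bath-20 had log2 fold changes of 2.69 and 2.21. bath-20 lost its call without *hrde-1* replicate 2 or wild-type replicate 2 (adjusted p up to 0.0583). The list's median was −0.03, the same as that of all genes, with all libraries. Of 85 F-box A proteins 1 was higher (1.18%), fbxa-11 (log2 fold change 2.26, adjusted p 0.00399), and 6 were higher and 4 lower without replicate 1. Of 158 nuclear hormone receptors 1 was higher (0.633%), nhr-15 (2.59, adjusted p 0.012), with its call lost without *hrde-1* replicate 2 or wild-type replicate 3 (adjusted p up to 0.0547), and 3 were higher and 2 lower without wild-type replicate 1. Of 46 cytochromes P450, 1 was higher (cyp-13A8) and 1 lower (cyp-29A3), the first lost without *hrde-1* replicate 1 or wild-type replicate 2 or 3 and the second without any 1 *hrde-1* library or wild-type replicate 2 (adjusted p up to 0.107), and 5 were higher and 4 lower without wild-type replicate 1. With all libraries 1 gene each was lower in a pair of immune effector families: clec-70 of 85 C-type lectins and lys-6 of 11 lysozymes, both with calls lost in the 5 fits that left out a library other than wild-type replicate 1 (adjusted p up to 0.142). The C-type lectins without wild-type replicate 1 held 4 higher and 4 lower genes and the lysozymes 2 lower genes, and DESeq2 with all libraries called 1 lectin higher and 5 lower and 1 lysozyme higher and 2 lower.

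**Figure D4:**
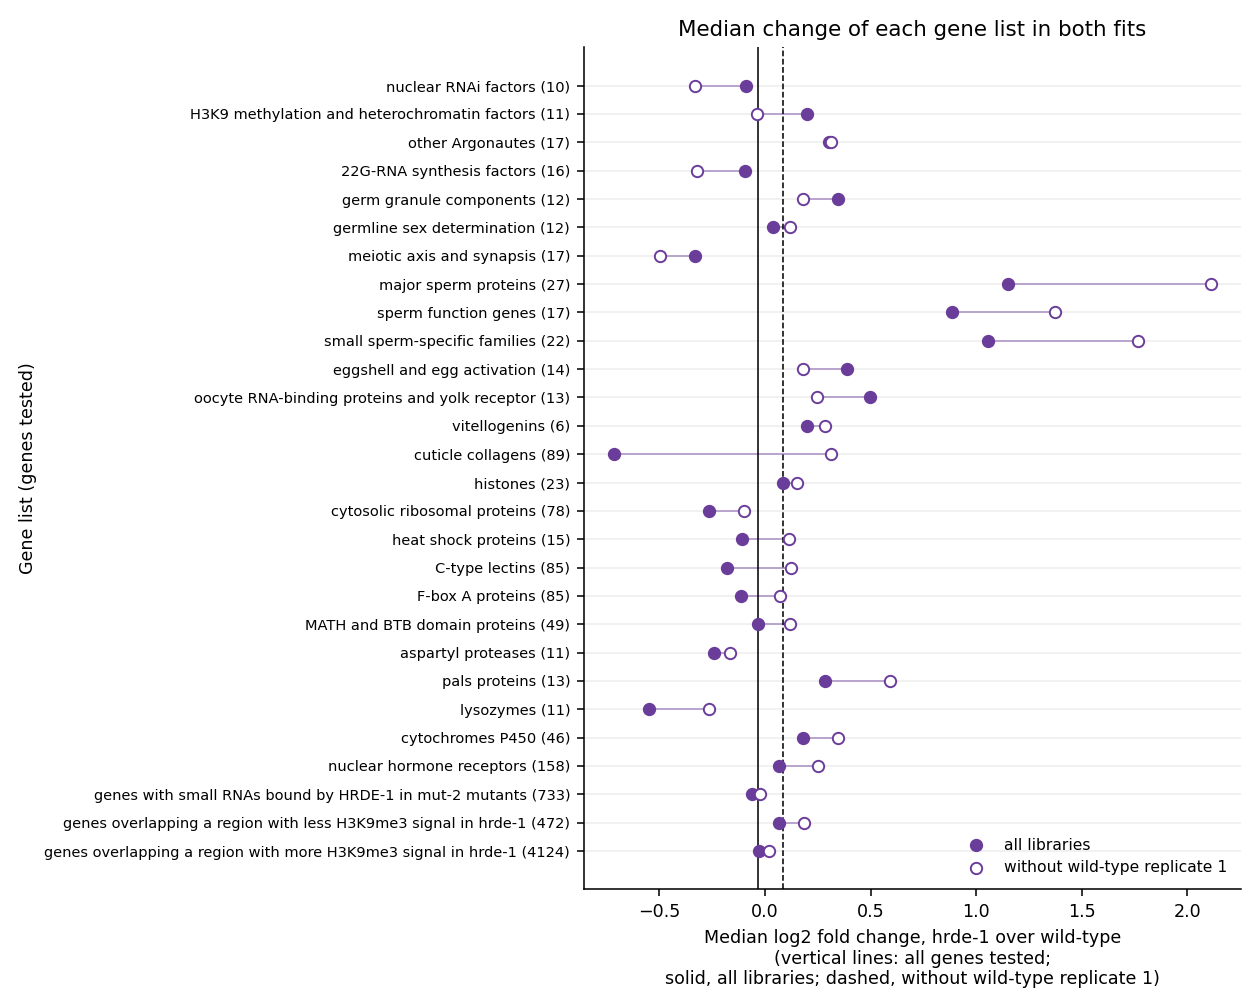
Median log2 fold change, *hrde-1* over wild-type, of each gene list, with all libraries (filled) and without wild-type replicate 1 (open), and the number of genes tested in parentheses; vertical lines are the medians of all genes tested (−0.03 solid, 0.09 dashed). The 3 sperm lists are farthest to the right in both, and cuticle collagens move across 0.

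Leaving out wild-type replicate 1 added 1484 calls, 616 higher (5.07%) and 868 lower (7.15%). The median log2 fold change of the added higher genes was 1.57, and 402 of them were at least 2-fold. The added lower genes were mostly small changes, with a median of −0.66 and 61 at least 2-fold. With all libraries, 610 of the 616 and all 868 had the same sign, and 426 and 370 had an unadjusted p under 0.05. In 265 (43.02%) of the added higher genes and 598 (68.9%) of the added lower genes, wild-type replicate 1 lay within or beyond the range of the *hrde-1* libraries. On a scale where 1 is the *hrde-1* mean and 0 the mean of wild-type replicates 2 and 3, its median place was 0.701 for the added higher and 1.18 for the added lower genes. For the genes called in both comparisons it was 0.0301 and 0.0885, next to the other wild-type libraries. These places follow from how the genes were chosen, since a call that appears when a library is left out needs that library to stand toward the other genotype or to add spread, and they describe the genes without supporting them. The 3 *hrde-1* libraries lay apart from these 2 wild-type libraries in all 616 added higher and all 868 added lower genes, and in 48.4% of all genes tested.

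**Figure D5:**
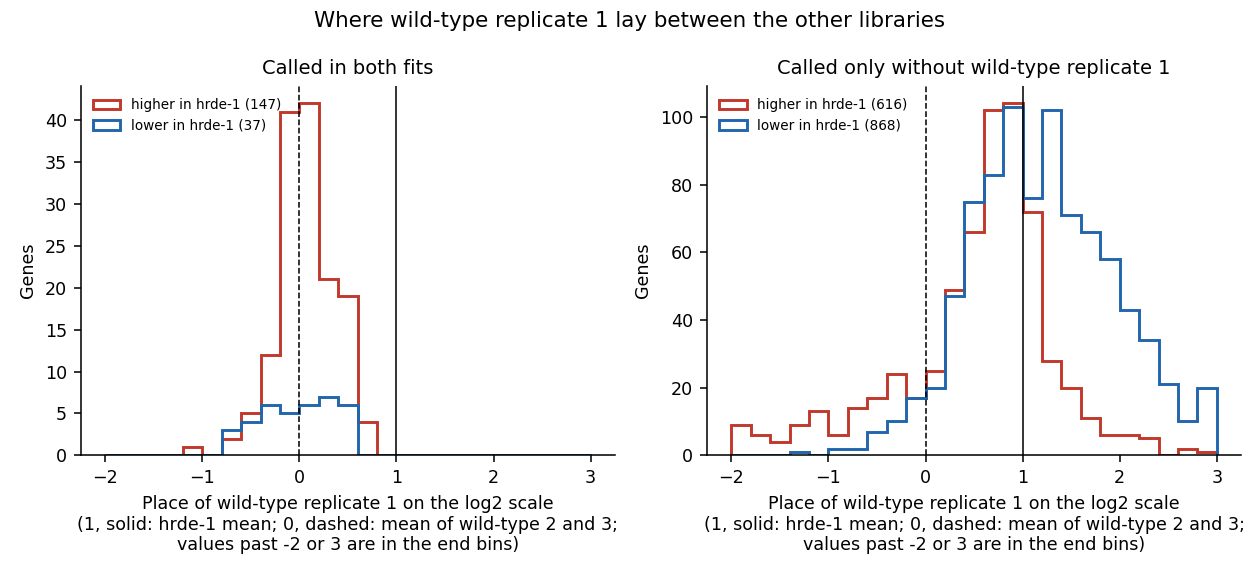
Number of genes by the place of wild-type replicate 1 on the log2 scale, where 1 (solid line) is the *hrde-1* mean and 0 (dashed line) the mean of wild-type replicates 2 and 3, for genes called in both comparisons (left) and only without replicate 1 (right). Genes called in both have medians of 0.0301 (higher, red) and 0.0885 (lower, blue), and those added by leaving out replicate 1 have medians of 0.701 and 1.18, a contrast that the choice of the genes fixes.

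The added higher genes with the largest changes, among those averaging 50 counts or more, were F21C10.9, Y41G9A.10, msp-3, msp-49, msp-64 and C10C5.5. F21C10.9 was at 321, 245 and 175 CPM in *hrde-1*, against 119.6, 18.0 and 19.9 CPM in wild-type, with an adjusted p of 0.0889 with all libraries and 0.000384 without replicate 1, and it overlaps F21C10.10 on the other strand. Of the added lower genes, ech-9, which encodes an enzyme of the enoyl-CoA hydratase family, was at 4.25, 6.93 and 2.98 CPM in *hrde-1*, against 12.3, 14.1 and 32.1 CPM in wild-type. Replicate 1 was the lowest wild-type library here and still above every *hrde-1* library, and the log2 fold change was −2.04 (adjusted p 0.0555 by edgeR) with all libraries and −2.26 (adjusted p 0.024) without it. Of the 616 added higher genes 24 (3.90%), and of the 868 added lower genes 43 (4.95%), were in the small RNA list, where the list made up 6.04% of genes tested.

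Only 4 genes were called with all libraries and not without wild-type replicate 1. nspg-7.2 was at 105, 198 and 92.1 CPM in *hrde-1*, against 25.4, 7.89 and 35.3 CPM in wild-type, with an adjusted p of 0.0105 with all libraries and 0.0593 without replicate 1 by edgeR. The aspartyl protease asp-12 was at 48.9, 124 and 41.5 CPM in *hrde-1*, against 433, 393 and 965 CPM in wild-type, with an adjusted p of 0.0118 and 0.0522. In both, the libraries within a genotype differed widely while the genotypes did not overlap. fmo-2, a flavin-containing monooxygenase, was at 85.2, 8.72 and 6.18 CPM in *hrde-1*, against 0.525, 2.14 and 2.15 CPM in wild-type (adjusted p 0.0396 and 0.143), so that 1 mutant library was about an order of magnitude above the others. lgmn-1, a legumain-type protease that overlaps cal-1, was at 344, 173 and 103.9 CPM in *hrde-1*, against 63.2, 69.3 and 84.9 CPM in wild-type (adjusted p 0.0499 and 0.0929). asp-12, fmo-2 and lgmn-1 also lost their calls without *hrde-1* replicate 1 and without wild-type replicate 2 or 3, asp-12 without *hrde-1* replicate 3 and lgmn-1 without *hrde-1* replicate 2, with adjusted p-values up to 0.173.

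The called genes were also grouped by annotated type and by chromosome. Of 272 pseudogenes tested, 18 (6.62%) were higher in both comparisons and 5 (1.84%) lower. Of 11736 protein-coding genes, 123 (1.05%) were higher and 32 (0.273%) lower. Non-coding RNAs added 3 of 56 ncRNAs, 2 of 23 lincRNAs and 1 of 18 snoRNAs, all higher. By chromosome, 0.942% to 1.58% of the genes tested on each autosome were higher and 0.226% to 0.297% lower. On the X chromosome 7 of 1625 genes (0.431%) were higher and 9 (0.554%) lower. The genes that became lower only without wild-type replicate 1 were 0.862% of those on the X and 6.61% to 9.74% of those on each autosome. These shares were not tested against each other.

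Among the 184 genes called in both comparisons, 29 overlap a gene on the other strand, as do 2374 of all 12141 genes tested, and their counts can include reads of the partner. Calls also depended on libraries other than wild-type replicate 1. Of the 188 genes called with all libraries, 73 higher and 12 lower genes were called in each of the 6 fits that left out 1 library, and 70 and 12 in every alternative at the same threshold. These 82 genes included C38D9.2, ZC15.3, F15D4.5, timm-17B.2, F28F8.7, spe-41 and gst-5 among the higher, and ZK228.3, ZK228.4, gfi-1, T25C12.3 and R10E4.1 among the lower.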

How the data were processed

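Reads were trimmed with Trimmomatic (0.39), aligned with HISAT2 (2.2.1) to the WBcel235 genome and assigned to WS258 genes with featureCounts of Subread (2.0.1), according to the study's methods and the submitters' processing notes. The deposited values are raw counts per gene as the authors made them, 1 file per library. Per the file headers the counting had no strand option, so reads of overlapping genes on opposite strands cannot be told apart. Reads matching several places can be lost or split in gene families. No row lacked a gene. Coordinates are those of the file and the Ensembl WBcel235 annotation.

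Counts were tested with edgeR (4.0.16, R 4.3.3): filterByExpr, TMM scaling, robust quasi-likelihood fit of all 9 libraries on genotype, and Benjamini-Hochberg adjustment over the 12141 of 19782 genes with a count that passed the filter. The fit was repeated without wild-type replicate 1 on the same genes. Of 31106 gene IDs, 30911 matched the annotation. DESeq2 (1.42.0), other scalings and filters, a replicate block and fits leaving out each library were alternatives. The fitting was tested on simulated data. Counting intervals and floors cover counting error only. With 3 libraries per group, p-values rest on the spread between libraries of a genotype, estimated from all libraries in the fit, *hrde-2* included, and shared among genes.

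Genes named were hrde-1, the 10 highest and 10 lowest log2 fold changes called in both fits averaging 50 or more counts in the higher genotype and without overlap, the 6 highest and 6 lowest called only without wild-type replicate 1, the 4 with the smallest adjusted p among those called only with all libraries, the 4 most abundant in each direction, up to 4 per list and the longest runs. Others were named after their values were seen. The comparison and the gene lists were chosen with earlier results of these data known.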

Additional observations from a re-analysis of the deposited data

How the results depend on the processing

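With all libraries (150 higher and 38 lower), the calls were 411 and 156 with DESeq2's Wald test, 474 and 185 with no filter on low counts, 90 and 19 with only the *hrde-1* and wild-type libraries in the fit, and 74 and 12 at an adjusted p under 0.01. Without wild-type replicate 1 (763 and 905), no filter gave 1155 higher and 1012 lower genes, and an adjusted p under 0.01 gave 264 and 160. The genes called in both comparisons (147 and 37) numbered 386 and 127 with DESeq2, 415 and 101 with no filter, 89 and 18 with only the 2 genotypes, and 74 and 11 at an adjusted p under 0.01. Leaving out 1 library in turn gave 87 to 763 higher and 15 to 905 lower genes, the upper ends without wild-type replicate 1; leaving out a further library after replicate 1 gave 123 to 889 higher and 31 to 777 lower genes, and a lone wild-type library was then assumed to vary like the other groups. DESeq2's size factors, library size alone, removal of ribosomal RNA genes and a filter of 1 CPM in 3 libraries stayed within 1.5 times of these counts. Without replicate 1, the higher genes outnumbered the lower ones under no filter, the stricter threshold, the replicate block and 4 of the 5 fits without a further library. Libraries with the same replicate number did not deviate together (correlations of −0.062, −0.093 and −0.044). With 3 libraries per genotype, and wild-type replicate 1 apart from the others, these values do not settle whether the numbers pair the samples. A replicate block gave 127 higher and 27 lower genes with all libraries, 697 and 633 without wild-type replicate 1, and 127 and 26 in both. Over 133 named genes and their alternatives, 1641 of 1995 values kept their direction and side of the threshold, 264 lost the call, 90 gained it and 0 changed direction. Depth limits the calls on genes of few counts, since 3 counts in the shallowest library are 0.537 CPM.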
